A study of Mus musculus with 8 samples.

Results

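The genes described here are 40 genes through which Wnt signals are sent and received: 19 Wnt ligands, 4 R-spondins, the 3 R-spondin receptors Lgr4 to Lgr6, 10 Frizzled receptors, and the co-receptors Lrp5, Lrp6, Ror1 and Ror2. They were taken by symbol from the array's annotation, and where a gene had several probe sets, the one brightest on average over the 8 arrays stood for it. All 40 had a probe set with a single symbol, of 18193 genes so named on the array, and 25 of the 40 passed the signal filter for testing, of 10989 genes tested. The RNA came from primary chondrocytes, the cells of cartilage, of E18.5 mouse embryos of strain FVB; rib cages were digested with collagenase and trypsin and the cells strained. There were 4 arrays of control embryos, labelled wild type, and 4 of embryos labelled Hoxc8 transgenic. Each of 4 litters, called litters 1 to 4 after the replicate numbers, gave 1 array of each genotype. The promoter that drives the transgene and the number of embryos per sample are not given in the sources used here.

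Wnt ligands are secreted lipid-modified proteins that bind Frizzled receptors at the cell surface. With Lrp5 or Lrp6 as co-receptor they stabilise beta-catenin, which then acts with TCF/LEF factors on target genes, whereas ligands such as Wnt5a can act through Ror1 and Ror2 without beta-catenin. R-spondins, bound by Lgr receptors, keep Frizzled receptors at the surface and so amplify the Wnt signal. In the growth plate, Wnt signals influence chondrocyte polarity, proliferation and maturation, and sustained beta-catenin activity disturbs the cartilage fate.

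All 15 cartilage markers examined, Col2a1, Acan and Sox9 among them, gave signals above the background described next on every array. The arrays' median signals ran from 106 to 121 and their pairwise Spearman correlations from 0.924 to 0.943. Markers of other cells were present too. Above the background on every array lay 14 of 15 markers of perichondrium and fibroblasts and 12 of 13 of skeletal muscle. So did 9 of 10 of endothelium and 8 of 11 of macrophages and osteoclasts. Of the markers found on the array, 3 of 5 of osteoblasts, 2 of 6 of neurons and Schwann cells and 1 of 5 of erythroid cells did. For epidermis and mesothelium it was 1 of 13, and for all named genes 57.2%. In such bulk RNA, fewer cells of a type and less RNA per cell cannot be told apart.

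Signal was read against 44 probe sets of odorant receptor genes, which are not expected in cartilage. The 95th percentile of their signals lay between 62.2 and 111 on the 8 arrays, highest in control litter 2. By this measure 21 of the 40 genes were above background on all 8 arrays, 12 on 1 to 7 arrays and 7 on none. Of all named genes, 57.2% were above it on all 8 arrays, so the share among these 40 was close to that of the array as a whole. How bright a probe set is depends on its probes as well as on the transcript, and the levels of different genes were not ranked.

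**Figure D1:**
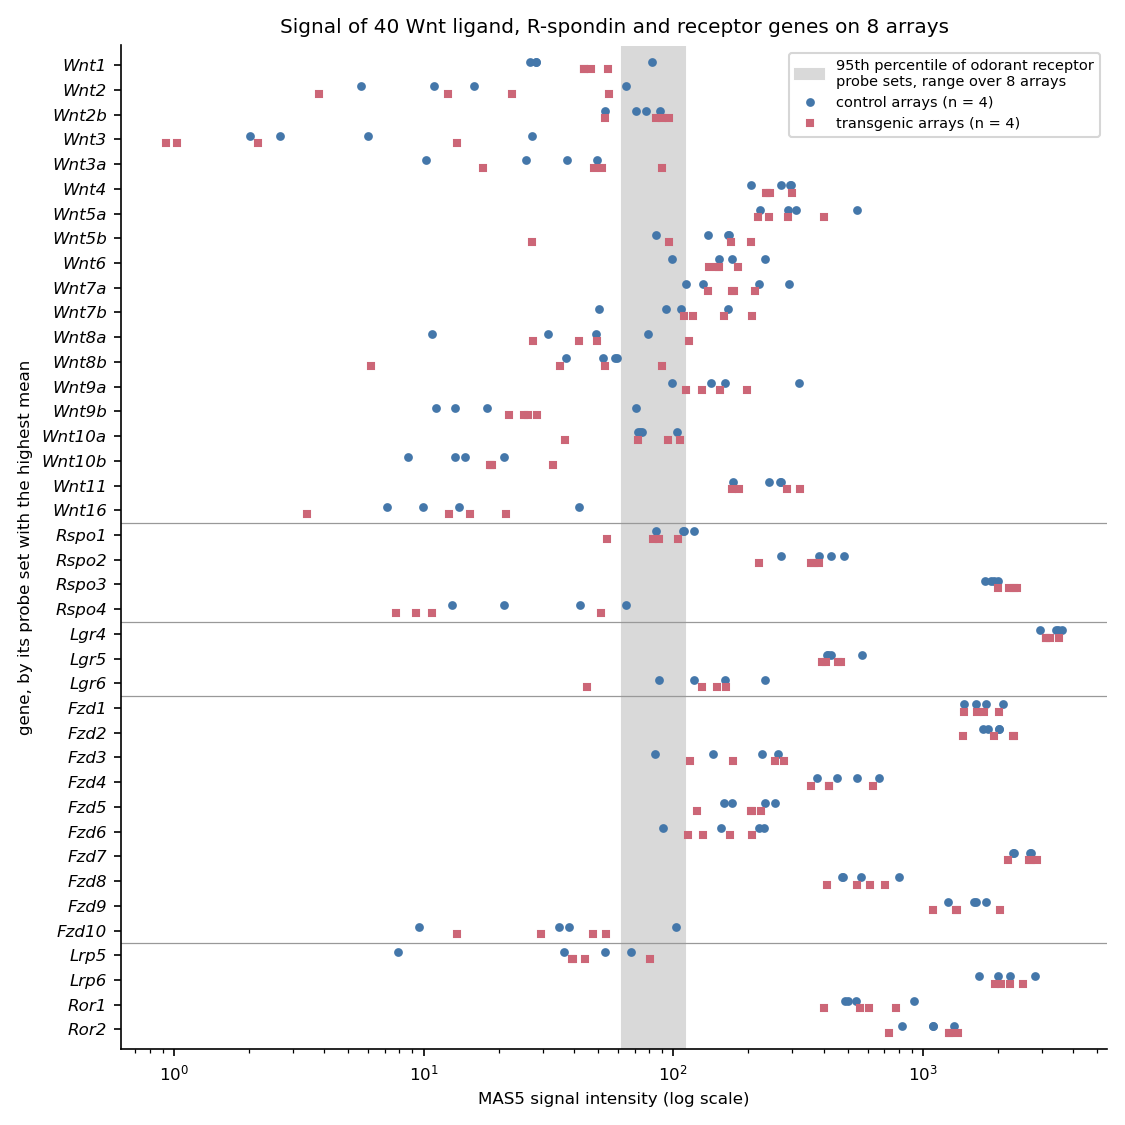
Signal of the representing probe set of each of the 40 genes on a log axis, 4 control arrays (circles) and 4 transgenic arrays (squares) per gene, with the range over arrays of the odorant receptor 95th percentile (62.2 to 111) in grey. The 2 genotypes overlap in every gene but Rspo3. Above the background of each array were 8 of 10 Frizzled genes and 6 of 19 ligands, against 57.2% of all named genes.

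Among the ligands, 6 of 19 were above background on all arrays: Wnt4, Wnt5a, Wnt6, Wnt7a, Wnt9a and Wnt11. Wnt5a, a ligand of the beta-catenin-independent pathway, gave signals of 288, 222, 545 and 310 in control litters 1 to 4 and 243, 218, 403 and 287 in transgenic litters 1 to 4. Both arrays of litter 3 stood above the 6 others, and the genotypes overlapped. Wnt4, a ligand with roles in joint and chondrocyte differentiation, gave 271, 296, 293 and 204 in control and 235, 244, 298 and 237 in transgenic samples. Wnt11, another ligand linked to beta-catenin-independent signalling, gave 172.8, 241, 270 and 268 in control and 184, 171, 321 and 286 in transgenic samples. Both genes overlapped between genotypes, and Wnt11 was higher in litters 3 and 4 than in litter 1 in both.

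The other 3 of these ligands lay closer to the background. Wnt9a, which takes part in joint formation, gave 142, 161, 318 and 99.01 in control and 197, 155, 112 and 130 in transgenic samples. Wnt6 gave 152, 232, 171 and 98.95 in control and 149, 182, 140 and 152 in transgenic samples. Wnt7a, a ligand known from limb patterning, gave 220, 291, 112 and 132 in control and 213, 138, 176 and 172 in transgenic samples. With the 99th percentile of the odorant receptor probe sets as the limit, Wnt6 was above on 7 arrays and Wnt9a on 6. For each of these 3 ligands another probe set was above background on no array, with signals from 3.92 to 47.3 for Wnt9a and from 3.05 to 52.5 for Wnt6. The 2 further probe sets of Wnt7a lay between 2.54 and 41.25, so the ligand's detection rests on 1 of 3 probe sets.

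The remaining ligands were not above background throughout. Wnt5b and Wnt7b were above it on 7 arrays each: Wnt5b dropped to 27.1 in transgenic litter 2 and lay between 85.0 and 205 on the other arrays, and Wnt7b was 50.5 in control litter 4 and between 93.5 and 207 elsewhere. Wnt2b and Wnt10a were above on 4 arrays, Wnt8a on 2, and Wnt1, Wnt3a and Wnt8b on 1. The genes above on none were Wnt2, Wnt3, Wnt9b, Wnt10b and Wnt16, with highest signals of 64.6, 27.2, 70.7, 33.0 and 41.9. A signal at background does not show that a transcript is absent.

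R-spondins and their receptors were represented by Rspo2, Rspo3, Lgr4 and Lgr5. Rspo3 gave 1928, 1778, 1994 and 1866 in control litters 1 to 4 and 2310, 2376, 2006 and 2202 in transgenic litters 1 to 4. Its lowest transgenic array, 2006, stood just above its highest control array, 1994, both from litter 3, so the genotypes did not overlap. Rspo2, which like Rspo3 encodes a secreted amplifier of Wnt signalling, gave 271, 427, 483 and 384 in control and 385, 366, 357 and 220 in transgenic samples, with overlap. Rspo1 was above background on 7 arrays, at 54.4 to 121, and Rspo4 on none, at up to 64.7.

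Lgr4 gave 3409, 3613, 3487 and 2937 in control and 3112, 3233, 3511 and 3123 in transgenic samples, a narrow range in which the genotypes overlapped. Lgr5, known as a marker of stem cells in other tissues and itself a beta-catenin target, gave 412, 430, 571 and 416 in control and 411, 459, 394 and 471 in transgenic samples. Only control litter 3 stood apart. The only other probe sets of Lgr4, at 5.04 to 67.8, and of Lgr5, at 6.96 to 68.6, were above background on no array. Lgr6 was above background on 7 arrays, at 45.2 to 233.

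Of the 10 Frizzled receptors 8 were above background on all arrays, Fzd6 being above the 99th percentile of the odorant receptor probe sets on 6. Fzd1 gave 1783, 1637, 2087 and 1455 in control and 1652, 1761, 2009 and 1462 in transgenic samples. Litter 3 was highest and litter 4 lowest in both genotypes. Fzd2 gave 2021, 1816, 2016 and 1748 in control and 2312, 1933, 2293 and 1446 in transgenic samples, again with litter 4 lowest in both. Fzd7, a close relative of Fzd1 and Fzd2, gave 2675, 2299, 2700 and 2310 in control and 2701, 2854, 2671 and 2189 in transgenic samples. It overlapped between genotypes and between litters.

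Fzd8 gave 472, 566, 802 and 478 in control and 616, 545, 704 and 411 in transgenic samples, with both arrays of litter 3 above the 6 others. Fzd9 gave 1635, 1264, 1797 and 1600 in control and 1366, 1102, 2039 and 1355 in transgenic samples, with litter 3 highest and litter 2 lowest in both genotypes. Fzd4, which is also the receptor of norrin, gave 454, 546, 668 and 378 in control and 422, 633, 422 and 357 in transgenic samples, with both arrays of litter 4 below the others. Fzd5 showed the same, with 232, 172, 256 and 159 in control and 205, 225, 208 and 125 in transgenic samples. Fzd4 had a further probe set above background on all arrays and another, at 25.9 to 69.6, above on none. The only other probe set of Fzd5, at 23.9 to 91.4, was above background on no array. Fzd6, a receptor known from planar cell polarity, gave 90.6, 155, 221 and 230 in control and 208, 132, 169 and 114 in transgenic samples, without a common order of litters. Fzd3 was above background on 7 arrays, at 84.5 to 278, and Fzd10 on 1, at 9.55 to 102.

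Of the co-receptors, Lrp6 gave 2224, 1677, 2802 and 1995 in control and 2241, 1947, 2511 and 2046 in transgenic samples. Its relative Lrp5 had a single probe set, above background on no array, at 7.92 to 80.95. Ror1 gave 539, 486, 920 and 503 in control and 609, 561, 782 and 402 in transgenic samples. Ror2, a receptor of Wnt5a needed for cartilage growth, gave 1101, 1093, 1333 and 827 in control and 1270, 1285, 1377 and 729 in transgenic samples. For Lrp6, Ror1 and Ror2 both arrays of litter 3 stood above the 6 others, and for Ror2 both of litter 4 stood below them.

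RefSeq promoter windows were matched for 27 of the 40 genes. Of the genes that passed the comparison of litters given below, Wnt5a and Lrp6 had no matched window. The 250 bases before the start are shown for the others that passed it, Ror1, Ror2 and Fzd9. Capitals mark CpG dinucleotides, of which the windows hold 8, 24 and 42. The positions, in build GRCm38.p6, are chr4:100095541-100095790 on the plus strand for Ror1, chr13:53286125-53286374 on the minus strand for Ror2 and chr5:135251048-135251297 on the minus strand for Fzd9, and each sequence is written 5′ to 3′ on the strand of its gene.
Ror1: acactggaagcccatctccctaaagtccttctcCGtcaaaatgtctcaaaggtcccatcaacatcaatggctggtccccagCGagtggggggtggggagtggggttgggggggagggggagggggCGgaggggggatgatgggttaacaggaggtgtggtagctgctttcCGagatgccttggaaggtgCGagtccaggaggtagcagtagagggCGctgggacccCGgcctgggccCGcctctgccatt
Ror2: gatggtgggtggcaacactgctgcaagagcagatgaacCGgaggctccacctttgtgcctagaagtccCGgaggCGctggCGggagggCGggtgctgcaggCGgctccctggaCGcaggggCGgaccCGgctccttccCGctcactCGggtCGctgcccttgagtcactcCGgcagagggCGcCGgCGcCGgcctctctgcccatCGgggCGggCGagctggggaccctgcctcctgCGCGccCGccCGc
Fzd9: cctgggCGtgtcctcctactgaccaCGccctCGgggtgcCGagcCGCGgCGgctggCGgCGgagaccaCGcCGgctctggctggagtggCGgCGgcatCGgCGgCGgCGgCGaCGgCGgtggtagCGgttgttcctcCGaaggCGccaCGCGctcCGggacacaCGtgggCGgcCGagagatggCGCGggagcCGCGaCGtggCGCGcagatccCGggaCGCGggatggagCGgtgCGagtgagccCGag

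Among the matched genes, the 13 above background on all arrays had a median of 28 CpG in 250 bases (8 to 48) and the 14 others a median of 22 (5 to 41), so the ranges overlapped widely; over all 27018 genes of the table the median was 6. The homeodomain motif TAATTA, searched on both strands, was found in the window of 1 of the 27, Wnt8b, and in 5.7% of all genes. The TCF/LEF motif CTTTGAT, searched on both strands, was found in windows of 2, Wnt5b and Wnt11, and in 3.7% of all genes. Wnt5b, with 3 windows, and Wnt11, with 2, were the only genes of the 27 with several. A match in any window of a gene counted. Neither motif holds the other, and a match is only a match of letters. The windows of Ror1, Ror2 and Fzd9 hold neither.

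The comparison of genotypes asks whether a transgene of Hoxc8, a homeobox gene of the trunk skeleton, goes with other levels of these genes. None of the 25 genes tested passed the test. By limma with litter as a block, 0 of the 25 passed an adjusted p of 0.05, against 0% of all 10989 genes tested, and the smallest adjusted p among them was 0.9998. At an unadjusted p under 0.05 there was 1 gene, Rspo3, against 3.08% of all genes. In the same steps run on simulated arrays, 172 of 200 genes given a change of 1 log2 were called, and 54 of 200 given a change of 0.5 log2. Those 200 were changed within a fit of 10989 genes, so the counts are not rates for the 25. The median half-width of the confidence interval was 0.24 log2 over all genes tested, 0.30 over the 25 and 0.48 over the ligands tested. Shares called among the 25 were not estimated and may be lower.

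Rspo3 averaged 1892 ± 92.1 (SD, n = 4) over the control arrays and 2223 ± 162 (SD, n = 4) over the transgenic arrays. On the log2(signal + offset) scale limma put transgenic minus control at 0.23 (SE 0.084; 95% interval 0.046 to 0.41; unadjusted p = 0.0185, adjusted p = 0.9998 after Benjamini-Hochberg). It was positive in all 4 litters, at 0.26, 0.41, 0.0081 and 0.24 log2 in litters 1 to 4. Over 15 alternative settings it ran from 0.17 to 0.30 log2, with a limma adjusted p of 0.9966 to 1. The limma unadjusted p was 0.101 without litter 2, where the difference was 0.17 log2, and it was above 0.05 also without litter 1 (0.054) and with eBayes without trend (0.0616). The only other probe set of Rspo3 was above background on no array, at 7.37 to 55.5. Arrays of the genotypes did not overlap for 0.992% of all genes tested, and were higher in transgenic samples in all 4 litters for 5.76%.

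Of the 8 ligands tested, Wnt5a was the only one with the same sign in every litter, at -0.23, -0.023, -0.41 and -0.10 log2 in litters 1 to 4. It averaged 341 ± 141 (SD, n = 4) over the control and 288 ± 82.0 (SD, n = 4) over the transgenic arrays, or -0.19 log2 (SE 0.14, 95% interval -0.49 to 0.10), and its second tested probe set stood at -0.25 log2 (SE 0.17). A negative difference in all 4 litters was seen for 4.93% of all genes tested. Wnt7b stood furthest from 0, at 0.48 log2 (SE 0.28, 95% interval -0.14 to 1.10), which came mostly from litter 4, with 1.66 log2. Its control mean, 104, lay under the filter signal of 110, so it entered the test through the transgenic arrays. Wnt5b stood at -0.31 log2 (SE 0.31), with -1.70 in litter 2 and values of at least 0.0335 in the other litters.

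Rspo2 stood at -0.22 log2 (SE 0.18), with 0.47 in litter 1 and negative values in the others. Leaving out litter 1 gave -0.46 log2 (limma, unadjusted p = 0.0141, adjusted p = 0.9998), and leaving out litter 4 gave -0.050. Over its 14 alternatives the adjusted p ran from 0.9966 to 1. Lgr4, Lgr5 and Lgr6 stood at -0.048 (SE 0.073), -0.064 (SE 0.14) and -0.29 (SE 0.27) log2. Lgr6 ran from -0.029 without litter 2 to -0.61 without litter 3 (limma, unadjusted p = 0.0428, adjusted p = 0.9998). Fzd9, at -0.13 (SE 0.093), stood at -0.23 without litter 3 (limma, unadjusted p = 0.046, adjusted p = 0.9998). Among the Frizzled receptors and co-receptors the differences ran from -0.15 log2 for Fzd4 to 0.22 for Fzd3, whose second tested probe set stood at -0.31, the opposite sign. Ror2 and Lrp6 stood at 0.076 and 0.026 log2, each with a second tested probe set of the opposite sign, at -0.16 and -0.21.

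Of the 25 genes, 7 lay above 0 and 18 below, the median being -0.043 log2. Over all genes tested 5567 lay above 0 and 5422 below, the median being 0.0015. The count for the 25 depended on single litters: without litter 3, 14 lay above 0 (median 0.0038 log2), and without litter 2 or litter 4, 10. With the stricter signal filter 5 of 10 lay above 0 (median 0.0063), and with the mean over probe sets 5 of 25. No test is attached to these counts. For 18 of the 25 the 95% interval stayed inside 1.5-fold up or down, and for 24 inside 2-fold, the exception being Wnt7b. The gene just below the signal filter, not tested, was Rspo1, with a mean signal of 94.5, and the gene just above it, tested, was Wnt7b, with 127.

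**Figure D2:**
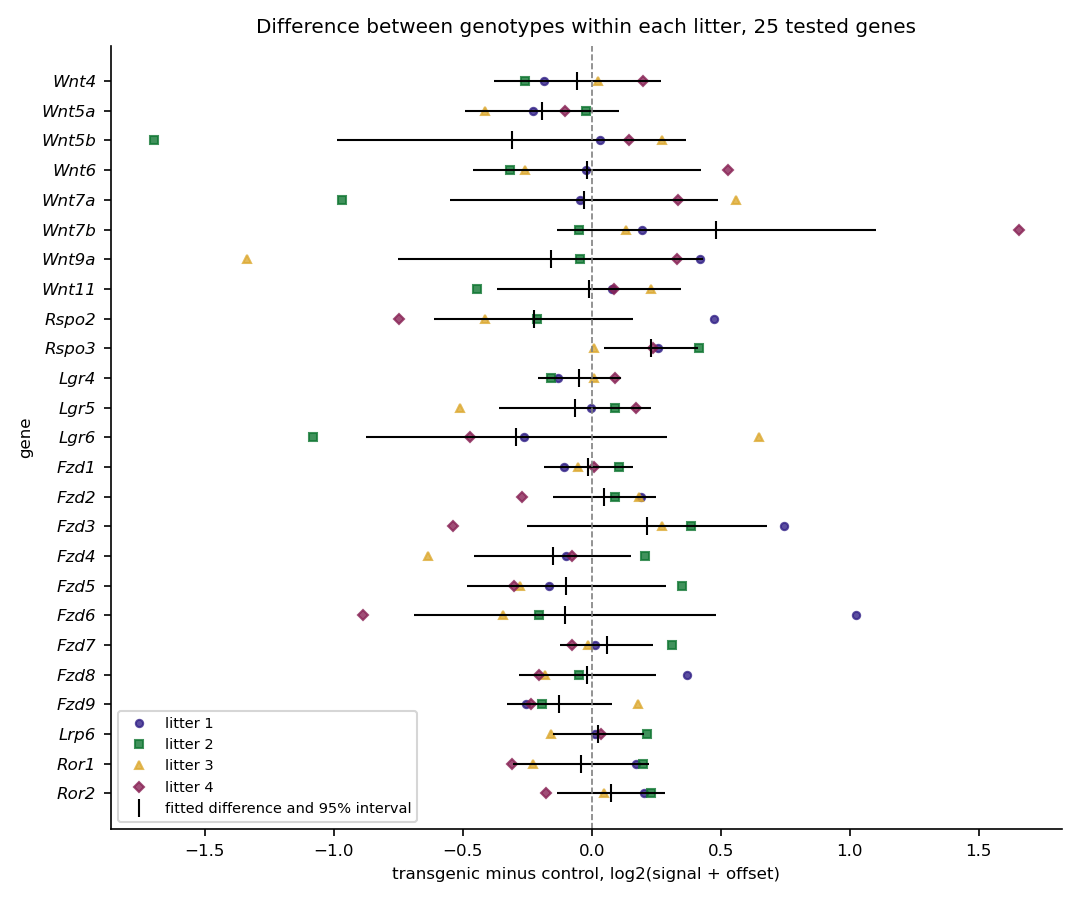
Transgenic minus control difference of log2(signal + offset) for the 25 tested genes, in each litter (coloured symbols) and as fitted over the 4 litters (black bar) with its 95% interval. Only the interval of Rspo3, from 0.046 to 0.41, leaves out 0, and only Rspo3 and Wnt5a have 4 litter values on 1 side of 0.

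Litters differed more than genotypes. By limma's moderated F-test of litter with genotype in the model, 5 of the 25 genes passed an adjusted p of 0.05: Ror2, Wnt5a, Ror1, Fzd9 and Lrp6. Of all genes tested 10.9% passed. At an unadjusted p under 0.05 there were 12 of the 25, against 29.9% of all genes; the other 7 were Wnt5b, Wnt11 and 5 Frizzled genes, Fzd1, Fzd2, Fzd3, Fzd4 and Fzd8. No R-spondin and no Lgr gene was among them, but only 2 and 3 of these were tested. That is too few to set them apart from the share of all genes. Lgr6 had an unadjusted litter p of 0.0598 (limma).

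For the 5 that passed, the litter with the highest mean was litter 3. Ror2 had litter means of 1186, 1189, 1355 and 778 in litters 1 to 4, a range of 1.73-fold on the log2(signal + offset) scale (limma adjusted p = 0.0130). Wnt5a, its ligand, had 265, 220, 474 and 299, a range of 2.03-fold (limma adjusted p = 0.0225). Ror1 had 574, 524, 851 and 452, a range of 1.85-fold (limma adjusted p = 0.0244). In these representing probe sets litter 3 was highest for the ligand and both Ror receptors, while litter 4 was lowest for the receptors and litter 2 for the ligand. Fzd9 had 1500.0, 1183, 1918 and 1478 (1.61-fold, limma adjusted p = 0.0298) and Lrp6 2232, 1812, 2656 and 2020 (1.46-fold, limma adjusted p = 0.0379), both lowest in litter 2.

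**Figure D3:**
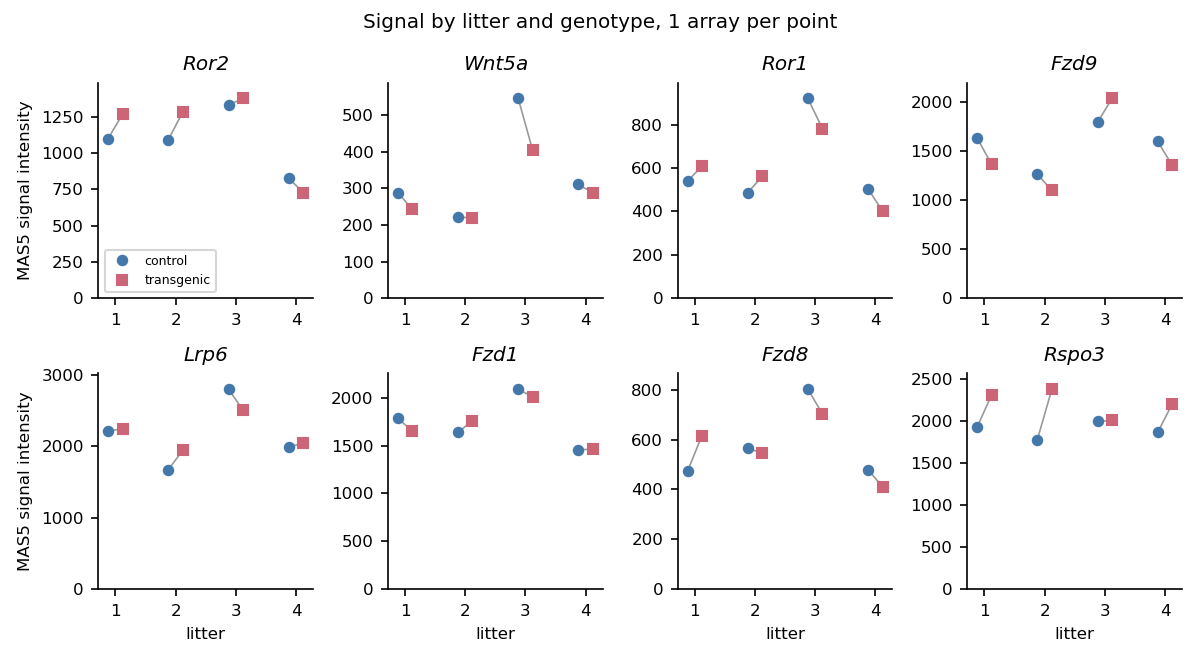
Signal of 8 genes by litter, 1 control array (circle) and 1 transgenic array (square) per litter joined by a line, on linear axes that start at 0. In Ror2, Wnt5a, Ror1, Fzd9, Lrp6, Fzd1 and Fzd8 both arrays of litter 3 stand above the 6 others; Rspo3 shows no such step, with litter means from 2000.0 to 2119.

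These litter calls depend on how the variance was estimated and on single litters. Without the intensity trend in eBayes, 0 of the 25 and 0 of all genes passed, while 9 of the 25 and 2279 of all genes had an unadjusted p under 0.05 and the smallest adjusted p of the 25 was 0.115. Without litter 3 only Ror2 passed (5.46% of all genes), without litter 2 Ror1 and Ror2 (3.91%), and without litter 4 Ror2 was lost (limma adjusted p = 0.495) and Fzd3 passed with the other 4 (5.42%). Without litter 1, 8 genes passed (15.1% of all genes): the 5 and Fzd1, Fzd3 and Fzd8.

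Other probe sets of the same genes often ordered the litters differently. The second tested probe set of Ror2, above background on all arrays, gave 351, 466, 368 and 319 in control litters 1 to 4 and 291, 453, 214 and 427 in transgenic litters 1 to 4, without the high litter 3. That of Wnt5a gave 322, 252, 339 and 220.0 in control and 207, 251, 226 and 241 in transgenic samples, with litter 3 highest in the controls only. That of Fzd8 was highest in litter 3 in both genotypes, at 245 and 337, as was that of Fzd4, whose representing probe set was highest in litter 2. That of Fzd1 had no peak in litter 3, with 262 in litter 1 of both genotypes against 269 and 255 in litter 3, but was lowest in litter 4. For Fzd1, Fzd4 and Fzd8, second tested probe sets had unadjusted litter p of 0.0117, 0.0259 and 0.00867, and for Fzd2 the 2 further probe sets had 0.00381 and 0.059. The second tested probe sets of Wnt5a, Fzd3, Ror2 and Lrp6 had 0.775, 0.418, 0.0796 and 0.0724. With the mean over all tested probe sets of a gene, Wnt5a, Ror2 and Lrp6 were not called (limma adjusted p = 0.152, 0.163 and 0.154) and Fzd1 and Fzd8 were. Fzd9, with 1 probe set, and Ror1, with 1 tested, stayed called.

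Over the 25 genes, 17 had their highest litter mean in litter 3, against 25.8% of all genes tested, and 9 had litter 3 highest and litter 4 lowest, against 9.85%. Both arrays of litter 3 stood above the 6 others in 7 of the 25, against 8.59% of all genes, and both of litter 4 stood below the others in 5, Fzd1, Fzd2, Fzd4, Fzd5 and Ror2, against 11.4%. The pattern was noticed in these data, and genes of 1 array are not independent of each other, so no test is attached to these counts.

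Markers of other cells of the rib cage also differed between litters. The summed signal of the 15 perichondrium and fibroblast markers had litter means of 208200, 198900, 220300 and 194200, and ran from 200400 to 226300 in control and from 181700 to 216100 in transgenic samples. That of the 5 osteoblast markers found had litter means of 22770, 20340, 25910 and 16680, with 18750 to 27430 in control and 14620 to 24400 in transgenic samples; it is mostly Col1a1, which perichondrium also expresses, while the osteoblast factor Sp7 lay at 309 to 450. Both sums had their highest litter mean in litter 3 and their lowest in litter 4, though control litter 4 was above control litters 1 and 2 in the perichondrium sum, at 206700 against 200400 and 202600. Marker by marker, 11 of 14 tested perichondrium and fibroblast genes had their highest litter mean in litter 3, but 8 had their lowest in litter 2 and 4 in litter 4. The sum of 13 skeletal muscle markers, 45000, 32010, 34350 and 48040 in litters 1 to 4, and that of 15 cartilage markers, 433800, 482300, 405400 and 404000, had other orders. The sum of 11 macrophage and osteoclast markers, 3786, 3042, 4554 and 3260, was also highest in litter 3, and that of 10 endothelial markers, 2316, 2683, 2601 and 1808, was lowest in litter 4. The part of these cells in the litter differences of the Wnt receptors was not tested.

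**Figure D4:**
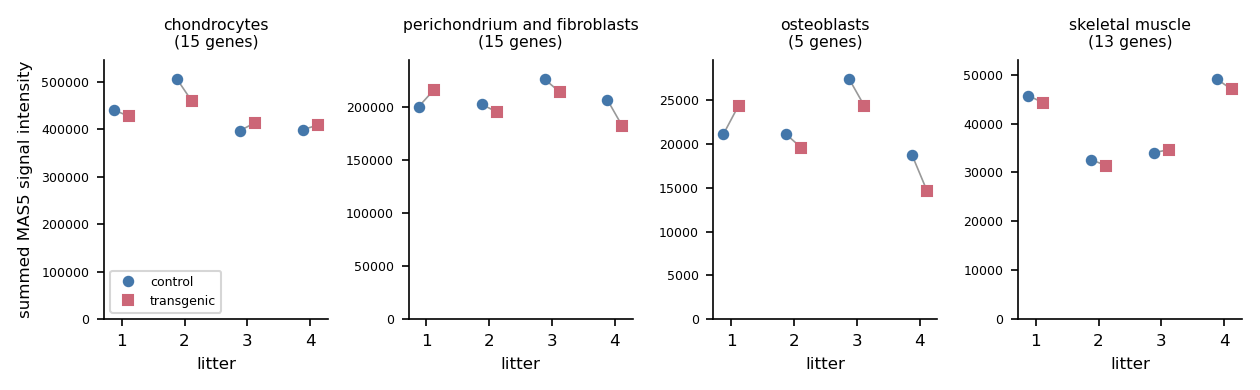
Summed signal of 4 marker lists by litter, 1 control array (circle) and 1 transgenic array (square) per litter joined by a line. The perichondrium and osteoblast sums have their highest litter mean in litter 3 and their lowest in litter 4, and the muscle sum is highest in litter 4.

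Other genes of the pathway were compared from lists of its steps. Of 85 genes outside the 40, 71 were tested and 0 passed between genotypes (limma, smallest adjusted p 0.9998); 30 lay above 0 and 41 below, the median being -0.033 log2, and 4 had an unadjusted p under 0.05, against 3.08% of all genes tested. By litter 14 of the 71 passed, or 19.7%, against 10.9% of all genes tested.

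For secretion of ligands, 5 of 5 genes were tested, with Porcn, the acyltransferase that lipid-modifies Wnts, at 0.23 log2 (SE 0.19) and Wls, which carries them to the surface, at -0.068 (SE 0.078). Of 12 co-receptors and membrane regulators 10 were tested; Lrp4 stood at -0.42 (SE 0.22) and Reck at -0.11 (SE 0.081), and 4 of the 10, Reck, Gpc4, Gpc6 and Adgra2, passed by litter, each highest in litter 3, where 10.9% of all genes tested passed by litter and 25.8% were highest in litter 3. Of 13 planar polarity genes 11 were tested, with Vangl2 at 0.24 (SE 0.16) and Fuz at 0.21 (SE 0.21) and 0 passing by litter (limma; 2 at an unadjusted p under 0.05).

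Of 18 genes of dishevelled and the destruction complex, which breaks down beta-catenin, 16 were tested. Gsk3b, its kinase, averaged 1378 ± 187 (SD, n = 4) over the control and 1199 ± 164 over the transgenic arrays (-0.20 log2, SE 0.083; limma, unadjusted p = 0.0362). With the mean over probe sets it stood at -0.053 (limma, unadjusted p = 0.559), and without the litter block the p was 0.168 (limma). Axin2, a scaffold and itself a target, averaged 182 ± 37.5 and 134 ± 18.96 (-0.38 log2, SE 0.19; limma, unadjusted p = 0.0685, adjusted p = 0.9998). It stood at -0.032, -0.41, -0.63 and -0.45 log2 in litters 1 to 4, and its genotypes did not overlap. Of the 71 pathway genes, 5 were lower and 4 higher in all 4 litters, and only Axin2 had no overlap. Over all genes tested, 4.93% were lower in all 4 litters and 0.992% did not overlap. Csnk1d, Dvl1 and Ctnnbip1 passed by litter, 18.8% of those tested against 10.9% of all genes tested. They were highest in litter 2, as were 2689 of the 10989 genes tested. Of 13 TCF/LEF factors and coactivators 11 were tested, with Tcf7l2 at 0.35 (SE 0.15; limma, unadjusted p = 0.0398) and Pygo2 at -0.12 (SE 0.11). Tcf7l1, 9.09% of those tested, passed by litter, also highest in litter 2. Tcf7l2 stood at 0.0035, 0.68, -0.069 and 0.80 in litters 1 to 4, at 0.20 without litter 4, and at 0.084 with the mean over probe sets (limma, unadjusted p = 0.557).

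Of 17 target genes of beta-catenin 13 were tested, 4 above 0 and 9 below, the median being -0.034 log2. Apcdd1 had the smallest unadjusted p, averaging 738 ± 233 (SD, n = 4) over the control and 596 ± 167 over the transgenic arrays (-0.29 log2, SE 0.10; limma, unadjusted p = 0.0156). With the mean over probe sets it stood at -0.13 (limma, unadjusted p = 0.189), and without the litter block the p was 0.204 (limma). Like Ror1 and Ror2, Apcdd1 also passed by litter (limma adjusted p = 0.0103), highest in litter 3 and lowest in litter 4, and so did Myc, highest in litter 2. Apcdd1 and Myc made up 15.4% of the target genes tested, against 10.9% of all genes tested. Of 15 secreted antagonists and their receptors 10 were tested, with Kremen1 at 0.31 (SE 0.12) and Wif1 at -0.19 (SE 0.10) log2. Kremen1 was higher in all 4 litters (limma, unadjusted p = 0.026, adjusted p = 0.9998), as were 5.76% of all genes tested. Wif1, Dkk3, Frzb and Sfrp1 passed by litter, 40% of those tested against 10.9% of all genes tested. Wif1, with a range of 5.30-fold, Dkk3 and Sfrp1 were highest in litter 3. Frzb was highest in litter 2 and lowest in litter 3.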

How the data were processed

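Chondrocyte RNA of 8 samples, 4 per genotype, was hybridised to 1 Affymetrix array each. The deposited intensity values are linear MAS5 signals, per the submitters' processing notes, which name no version; the 2% trimmed mean was 500 on every array. Of 45101 probe sets, GEO's platform annotation gives 1 symbol to 34945, several to 932 and none to 9160, and 64 are controls. The probe sets standing for Wnt3, Wnt5b, Wnt10b and Fzd2 carry the suffixes _x, _a or _s; _x and _s mark probes that may match other transcripts.

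The log2 of signal plus 22.2 was analysed; this offset, the 20th percentile of all values, understates changes of dim genes. Probe sets with a mean of at least 110, the median of the means, were tested (22519). Genotypes were compared with limma 3.58.1 in R 4.3.3 (lmFit, eBayes with trend, two-sided, litter as a block) and litters with its moderated F-test, with Benjamini-Hochberg adjustment over 10989 genes at 0.05. The pairing comes from the labels and the series' design text, in which each number stands for 1 litter. After removing each genotype's mean, the 2 arrays of a litter correlated at 0.0251, 0.434, 0.376 and 0.379. The control array's highest correlation with a transgenic array of another litter was 0.063, 0.0133, 0.0303 and 0.00416. For litter 1 the values therefore do not bear out the pairing. The steps were tested on simulated data. The number of arrays limits the precision. With litter as a block, genotype p-values rest on how far the difference within a litter varied from litter to litter, after limma's moderation. The litter test uses that same residual spread as its error.

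The 40 genes, the lists and the tests were chosen with earlier results of these data known. Values on every array are given for genes above background on all arrays, with an unadjusted genotype p under 0.05, or among the 6 of smallest litter p; in each pathway list the 2 genes of smallest unadjusted p and those passing by litter are named. Alternatives were other offsets, filters, normalizations and eBayes settings, array weights, the mean over tested probe sets, no block, other background percentiles and leaving out each litter. For the litter test, median centring, robust eBayes, array weights and the mean over probe sets were added after seeing the data.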

Additional observations from a re-analysis of the deposited data

Results flagged for a closer look

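For the 25 tested genes, 50 sets of 4 arrays, 1 per gene and genotype, were searched for an array whose distance to its nearest neighbour exceeds Dixon's 95% critical value as a share of the whole range. This was so in 5 of the 50 sets, where chance gives about 2.5, and the values lie on 3 arrays. Rspo2 was lowest in transgenic litter 4, at 219.6 (next 357). Ror2 was lowest in the same array, at 728.9 (next 1270). Ror1 was highest in control litter 3, at 920.1 (next 539), and so was Lgr5, at 570.8 (next 429.5). Wnt4 was highest in transgenic litter 3, at 298.2 (next 243.6).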

How the results depend on the processing

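Between genotypes 0 of all genes and 0 of the 40 passed in each of 15 alternatives, no replicate block included (100 genes at an unadjusted p under 0.05 by limma without it, against 338), and the count of genes above background lay between 18 and 26, against 21. By litter 788 of all genes and 3 of the 40 passed without a signal filter, which tested more genes, and 0 and 0 with eBayes without trend, which fell back on 3.38 prior degrees of freedom against 8.93; leaving out single litters, and with them samples, gave 430 to 1659 genes and 1 to 8 of the 40. Of 360 values of log2 differences between genotypes, 26, of 16 of the 25 genes, had the opposite sign, none of them called; the cause was not tested. These were, with the mean over probe sets, Fzd3 at -0.045, Fzd8 at 0.067, Lrp6 at -0.090 and Ror2 at -0.040; with array weights, Wnt7a at 0.047, Wnt11 at 0.028 and Lrp6 at -0.00103; and with quantile normalization Wnt11 at 0.000787. Without single litters the signs turned within -0.14 to 0.011 for Wnt4, -0.51 to 0.15 for Wnt5b, -0.20 to 0.082 for Wnt6, -0.23 to 0.28 for Wnt7a, -0.35 to 0.23 for Wnt9a, -0.092 to 0.13 for Wnt11, -0.14 to 0.086 for Lgr5, -0.052 to 0.019 for Fzd1, -0.27 to 0.00922 for Fzd4, -0.48 to 0.16 for Fzd6, -0.026 to 0.10 for Fzd7, -0.15 to 0.0449 for Fzd8, -0.037 to 0.087 for Lrp6 and -0.12 to 0.046 for Ror1. The rest of the 549 values of the 38 genes named with a genotype test kept their direction, and 0 were called. Signal over background limits the ligands most, since 13 of 19 were not above it on every array.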
